A study of Mus musculus with 6 samples.

Results

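Myelin and oligodendrocyte genes were examined in bulk RNA-seq of the mouse pituitary. The set was chosen by gene name, with earlier results of these data known. It comprised 9 genes: CNP, MAG, MBP, MOG, MOBP, CLDN11, UGT8, SOX10 and PMP22. Of these, 8 had a row among the 16736 rows of the count table, and UGT8 was not analysed here. The study measured polyadenylated RNA of whole pituitaries of male mice in 6 libraries, 3 labelled RD and 3 labelled HFD, each collected after 16 h of fasting and 4 h of feeding. The labels give no strain, age, genotype or diet composition, do not spell out RD or HFD (the series title speaks of obesity), and do not say whether the replicates were separate animals, so that the p-values here measure how far the 6 libraries varied, and that variation may be technical. The design asks how the pituitary transcriptome of HFD mice differed from that of RD mice.

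Myelin is the membrane sheath that oligodendrocytes of the central nervous system and Schwann cells of peripheral nerves wrap around axons. Its compact layers are held together by adhesive membrane proteins, its non-compact parts and inner face carry enzymes and adhesion molecules, and its membranes are rich in galactolipids. The pituitary joins a glandular part, made of hormone cells, to a neural lobe formed by pituicytes and by the terminals of hypothalamic axons, which are largely unmyelinated. Central myelin lies in the adjoining hypothalamus, and peripheral nerve fibres enter with vessels and coverings. Several of the genes are not restricted to myelinating cells: CLDN11 and PMP22 are also made in epithelial or connective tissue cells, CNP occurs in many cell types, and the MBP locus also encodes golli proteins found in neurons and immune cells.

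The start regions of the genes are shown first, because MOBP, a gene that carries results below, stands apart there from CNP, MAG and MOG in how often it holds the core letters recognised by SOX factors, the family of the member SOX10. RefSeq windows on GRCm38.p6 were found for 7 of the 9 genes, and the 200 bases from 250 to 51 bases before the annotated start were searched on both strands for 6 motifs. Each line runs 5′ to 3′ on the gene's strand, with matches to ACAAAG or its reverse complement CTTTGT in capitals. The windows are chr9:120149492-120149691 (+) for Mobp, chr11:100574689-100574888 (+) for Cnp, chr7:30914973-30915172 (-) for Mag and chr17:37023449-37023648 (-) for Mog.
Mobp: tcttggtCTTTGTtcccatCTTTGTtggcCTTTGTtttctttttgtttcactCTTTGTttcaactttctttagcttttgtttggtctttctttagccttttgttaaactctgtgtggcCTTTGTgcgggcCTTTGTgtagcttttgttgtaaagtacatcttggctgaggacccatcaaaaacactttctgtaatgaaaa
Cnp: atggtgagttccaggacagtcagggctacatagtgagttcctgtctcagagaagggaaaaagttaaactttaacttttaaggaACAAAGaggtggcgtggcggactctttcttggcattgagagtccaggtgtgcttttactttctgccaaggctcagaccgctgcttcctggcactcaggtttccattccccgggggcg
Mag: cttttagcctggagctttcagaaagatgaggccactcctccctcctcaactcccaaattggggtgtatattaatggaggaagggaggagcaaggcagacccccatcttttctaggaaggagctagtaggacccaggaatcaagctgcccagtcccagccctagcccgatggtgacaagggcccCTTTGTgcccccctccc
Mog: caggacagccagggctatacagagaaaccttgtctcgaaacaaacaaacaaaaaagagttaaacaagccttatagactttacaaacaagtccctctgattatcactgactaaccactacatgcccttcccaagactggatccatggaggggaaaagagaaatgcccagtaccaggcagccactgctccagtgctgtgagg
The Mobp window held 6 matches, all on the minus strand, and the Cnp and Mag windows held 1 each, while the windows of Mog, Cldn11, Pmp22 and Ugt8a held none. Mag had 3 windows, of which 2 held that same match, and Pmp22 had 4. Over 32851 windows of this length, 13.6% held at least 1 match and 1 window (0.00304%), that of Mobp, held 6. The Mobp matches sit in a stretch rich in T, and ACAAAG shares letters with the site of TCF/LEF factors. The other 5 motifs had no match in any window of these genes. They were the SOX variant ACAATG (in 8.94% of all windows), an inverted SOX dimer motif (0.295%), the E-box CAGCTG (10.3%), the E-box CACGTG (4.34%) and the TATA box TATAAA (9.14%). The count for ACAAAG is singled out after the matches to all 6 motifs were seen. A match describes the letters and does not show a bound site.

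Gene by gene the members fell into 3 patterns. CNP and MAG were higher in each of the 3 HFD libraries than in any RD library, and both passed the test. MBP, MOBP and MOG were high mainly in HFD replicate 3. MBP and MOBP did not pass the test, and MOG was too low to be tested. CLDN11, PMP22 and SOX10 had overlapping values in both groups. In bulk tissue, a different number of cells of a type and a different amount of RNA per cell cannot be told apart in any of these values. Levels are given as CPM, which are counts scaled to a common library total with TMM factors. A gene is referred to as called when the adjusted p of edgeR's quasi-likelihood test was under 0.05. Of 13873 genes tested, 1453 (10.5%) were called, 814 higher (5.87%) and 639 lower (4.61%). Among the members, 7 were tested and 2 were called, CNP and MAG, both higher, and none was lower. MAG, with 4 to 11 counts in the RD libraries, passed the filter on low counts through the HFD group. Its place among the 7 is therefore not independent of its level in HFD. The median log2(HFD/RD) of the 7 was 0.59, against 0.00 over all tested genes, and it was 0.05 without HFD replicate 3.

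**Figure D1:**
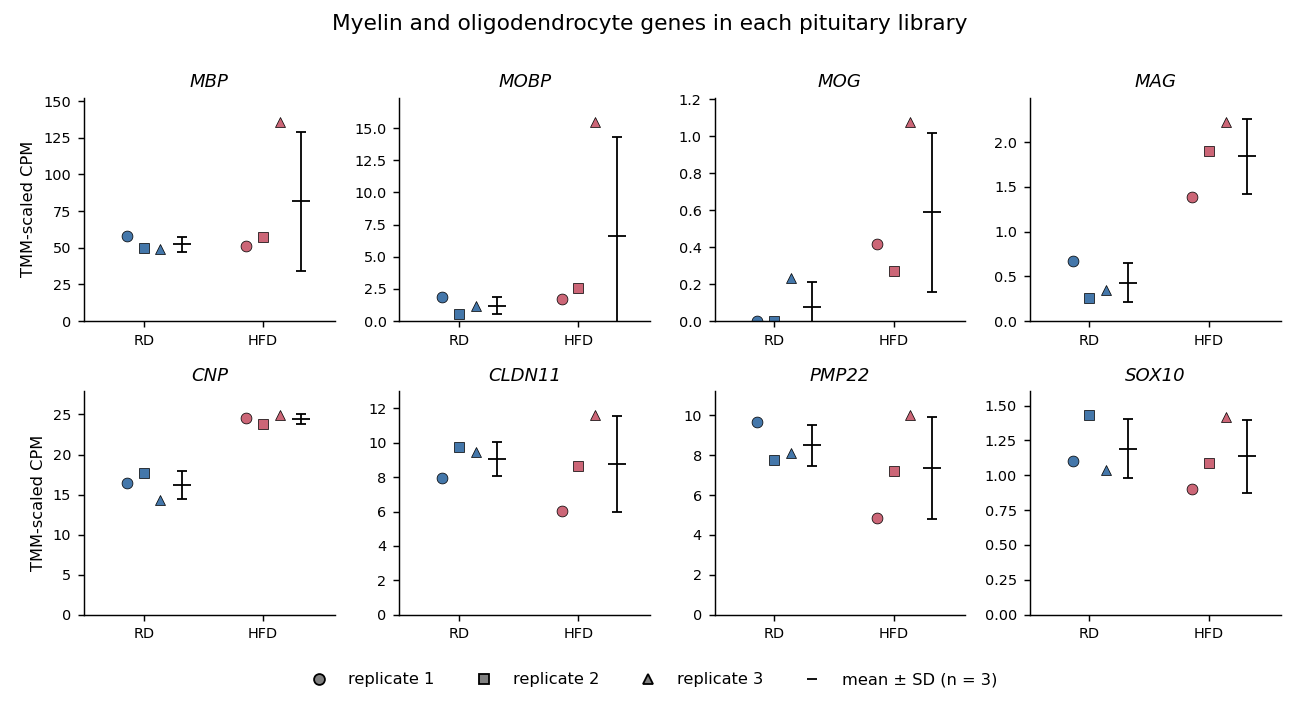
Level of each member in each library, as TMM-scaled CPM on a linear axis that starts at 0, by group (RD or HFD) with 1 symbol per replicate; the bar at the right of each group is the mean ± SD (n = 3), cut at 0 for MOG and MOBP. CNP and MAG do not overlap between groups. Nor does MOG in CPM, where the nearest values (0.231 in RD, 0.272 in HFD) come from 4 counts each. The triangle of HFD replicate 3 stands alone for MBP, MOBP and MOG.

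CNP encodes the cyclic nucleotide phosphodiesterase of non-compact myelin. Its gene lies on chromosome 11 (100574904 to 100591729, plus strand, mm10). CNP stood at 16.5, 17.7 and 14.3 CPM in RD replicates 1, 2 and 3, and at 24.6, 23.8 and 24.9 CPM in HFD replicates 1, 2 and 3. All 3 HFD libraries were above all RD libraries, and their SD was 0.568 CPM around a mean of 24.4 CPM, against 16.2 ± 1.71 CPM (SD, n = 3) in RD. The difference was 0.59 ± 0.11 on the log2 scale (SE), 1.51-fold, with an adjusted p of 0.0124. Without HFD replicate 2 the value was 0.61 (adjusted p = 0.0508) and without HFD replicate 3 it was 0.58 ± 0.14 (adjusted p = 0.0641), both just missing the threshold, while dropping any of the other 4 libraries did not end the call. Exons of CNP share 154 bases with DNAJC7 on the opposite strand, and whether strand was used in counting is not known. DNAJC7, a heat shock protein cochaperone, had 88.3 ± 3.24 CPM in RD against 80.3 ± 3.26 CPM in HFD, a log2 difference of -0.14 ± 0.07 (adjusted p = 0.266).

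MAG is a sialic acid-binding adhesion molecule on the myelin face next to the axon, and its gene lies on chromosome 7 (30899176 to 30914873, minus strand). MAG was scarce, with 11, 4 and 6 counts in the RD libraries and 20, 28 and 33 counts in the HFD libraries. These are 0.673, 0.260 and 0.347 CPM in RD and 1.39, 1.90 and 2.23 CPM in HFD. Every HFD library was above every RD library, and the lowest HFD value was over the highest RD value by more than the spread within RD (SD 0.218 CPM, n = 3). The mean rose from 0.427 ± 0.218 to 1.84 ± 0.425 CPM (SD, n = 3), a log2 difference of 2.08 ± 0.44 or 4.24-fold (adjusted p = 0.0171). MAG passed the filter on low counts through the HFD group. Its call was lost without RD replicate 2 (1.84, adjusted p = 0.0561), HFD replicate 2 (2.06, adjusted p = 0.0663) or HFD replicate 3 (1.92 ± 0.49, adjusted p = 0.0801). CNP and MAG were the 2 tested members whose groups did not overlap. Over all genes tested, the groups did not overlap for 32.5%, and for 16.9% with HFD higher.

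MBP encodes the basic protein that binds the inner membrane faces of compact myelin. MBP was the most abundant member, at 58.1, 49.7 and 49.2 CPM in RD replicates 1 to 3 and 51.3, 57.3 and 136 CPM in HFD replicates 1 to 3. HFD replicates 1 and 2 lay within the RD range and HFD replicate 3 was 2.34 times the highest of the other 5 libraries. The log2 difference was 0.64 ± 0.31 (adjusted p = 0.22) with all libraries and 0.05 ± 0.11 (adjusted p = 0.848) without HFD replicate 3. Counts per gene do not separate the classic myelin transcripts from golli transcripts.

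MOBP is a small basic protein of compact central myelin, encoded on chromosome 9 (120149707 to 120181484, plus strand). MOBP had 1.84, 0.521 and 1.21 CPM in the RD libraries against 1.73, 2.58 and 15.5 CPM in the HFD libraries, from 8 to 30 counts in RD and 25, 38 and 230 counts in HFD. HFD replicate 1 lay within the RD range, HFD replicate 2 above it, and HFD replicate 3 was 6.02 times the highest of the others. The log2 difference of 2.46 ± 0.79 did not pass the test (adjusted p = 0.0791), and it was 0.85 ± 0.50 (adjusted p = 0.398) without HFD replicate 3. Without HFD replicate 1 it was 2.91 and was called (adjusted p = 0.0489). MOBP shares 79 exon bases with the same-strand transcript Gm38642, which the counts may not separate.

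MOG is an immunoglobulin-type protein of the outermost myelin layer, encoded on chromosome 17 (37010743 to 37023398, minus strand). MOG had 0, 0 and 4 counts in the RD libraries and 6, 4 and 16 counts in the HFD libraries. The highest count was again in HFD replicate 3, and HFD replicate 2 equalled RD replicate 3 in counts. In CPM, HFD replicate 2 was at 0.272 and RD replicate 3 at 0.231. The groups thus did not overlap in CPM, through the scaling of equal counts. At these totals 3 counts, the limit that a count of 0 allows, correspond to 0.173 to 0.208 CPM, so that the absence of MOG in 2 RD libraries sets only an upper limit for counting error. With no filter on low counts, edgeR gave MOG a p of 0.0246 and an adjusted p of 0.137.

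CLDN11 forms the tight junctions between myelin layers, and its gene lies on chromosome 3 (31149920 to 31164324, plus strand). CLDN11 had 7.95, 9.77 and 9.48 CPM in the RD libraries against 6.04, 8.63 and 11.6 CPM in the HFD libraries. HFD replicate 1 held the lowest and HFD replicate 3 the highest value of the 6, and the log2 difference was -0.05 ± 0.22 (adjusted p = 0.913). PMP22, a tetraspan protein of peripheral compact myelin encoded on chromosome 11 (63128982 to 63159547, plus strand), showed the same order within HFD, at 4.86, 7.20 and 10 CPM, around an RD range of 7.75 to 9.67 CPM. Its log2 difference was -0.21 ± 0.24 (adjusted p = 0.635). SOX10, the transcription factor shared by oligodendrocytes, Schwann cells and other neural crest derivatives, is encoded on chromosome 15 (79154908 to 79165240, minus strand). It had 13 to 22 counts per library, 1.19 ± 0.211 CPM in RD and 1.14 ± 0.262 CPM in HFD (SD, n = 3), a log2 difference of -0.06 ± 0.35 (adjusted p = 0.934). The sign of these 3 genes was not stable. CLDN11 was at 0.15, SOX10 at 0.08 and PMP22 at 0.02 without HFD replicate 1, and CLDN11 at 0.02 and SOX10 at 0.01 when scaled by library size only. Leaving out RD replicate 2 put SOX10 at 0.08.

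**Figure D2:**
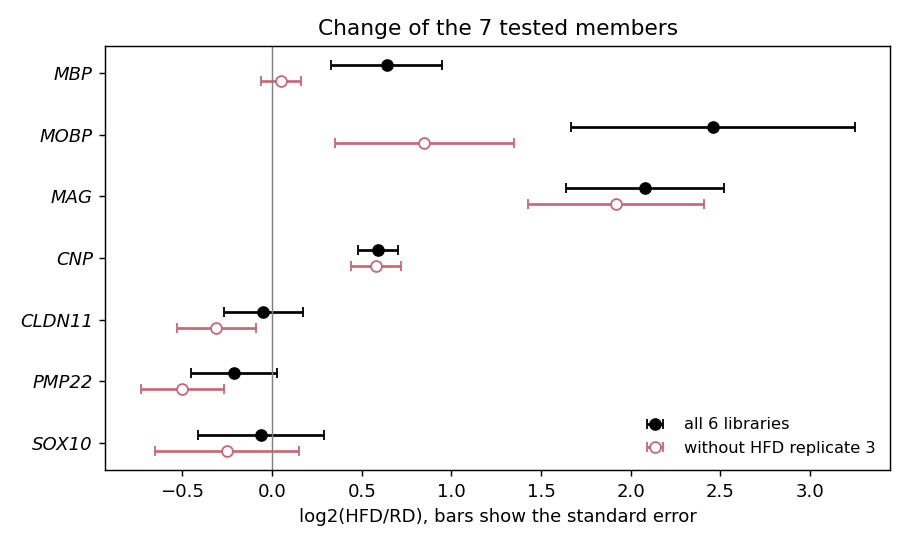
Log2(HFD/RD) of the 7 tested members (horizontal axis, points with standard errors), from all 6 libraries in black and without HFD replicate 3 in open symbols. MBP moved from 0.64 to 0.05 and MOBP from 2.46 to 0.85, while CNP (0.59 and 0.58) and MAG (2.08 and 1.92) stayed close.

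Divided by the exon length of GENCODE M21, the mean RD levels of the members in CPM per kilobase formed 2 tiers. MBP (6.18 ± 0.592), CLDN11 (4.85 ± 0.521), CNP (4.45 ± 0.471) and PMP22 (3.61 ± 0.435) formed the upper tier. CLDN11 and CNP did not differ beyond their SD (n = 3). SOX10 (0.390 ± 0.0691), MOBP (0.174 ± 0.096), MAG (0.105 ± 0.0534) and MOG (0.0452 ± 0.0783) formed the lower tier, in which MAG differed from MOBP and from MOG by less than the larger SD of each pair, while MOBP and MOG differed by more than either SD. In HFD the order by mean was MBP (9.62 ± 5.57), CNP (6.71 ± 0.156), CLDN11 (4.67 ± 1.48), PMP22 (3.12 ± 1.09), MOBP (0.967 ± 1.13), MAG (0.452 ± 0.104), SOX10 (0.372 ± 0.086) and MOG (0.346 ± 0.253). CNP thus stood above CLDN11 and PMP22 in HFD, where MAG and SOX10 were within each other's spread. Levels per length depend on which transcripts are present, which the counts do not show.

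HFD replicate 3 was next described across the table. Tested genes were ranked by HFD replicate 3 over the highest of the other 5 libraries, with 0.5 CPM added to both for the rank, a measure chosen after the values were seen. MOBP ranked 1, BCAS1 2 and MBP 4 of 13873. With nothing added, MOBP again ranked 1 and BCAS1 2, and MBP ranked 9. BCAS1, a protein of early myelinating oligodendrocytes, came from the list of other oligodendrocyte genes. With 0.5 CPM added for the rank and the plain ratio of CPM given beside it, MAG ranked 618 (1.17 times), CLDN11 430 (1.18), PMP22 1743 (1.03), CNP 2222 (1.01) and SOX10 2740 (0.991), so that the excess did not extend to every member. MOG, which was not tested, was at 2.6 times. A first ranking, against the median of the other 5 libraries and with the same addition, put MOBP at 1, MBP at 24, MAG at 56, CNP at 1007, CLDN11 at 1375, PMP22 at 1689 and SOX10 at 2288. In CPM, HFD replicate 3 was the highest of the 6 libraries for 6 of the 7 tested members (85.7%), against 18.3% of all tested genes, although for CNP and PMP22 by the margins just given.

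A plain ratio of at least 2 in HFD replicate 3 was found for 20 genes (0.144%), and 11 genes (0.0793%) reached it with 0.5 CPM added. Among the 20 were 2 of the 7 tested members (MBP and MOBP), 2 of the 22 tested other oligodendrocyte myelin genes (BCAS1 among them), 1 of 13 pituicyte and astrocyte markers (GFAP) and 1 of 11 folliculostellate and stem cell markers (S100B). None of the tested genes for oligodendrocyte precursors (10), oligodendrocyte transcription factors (11), Schwann cells (14), galactolipid synthesis (17), nodes (17), fibroblasts (13) or hypothalamic neurons (11) reached it. GFAP, the astrocyte filament protein, had 4.41, 2.21 and 5.26 CPM in RD against 4.30, 3.87 and 11.4 CPM in HFD. S100B, a calcium-binding protein of glia and folliculostellate cells, had 2.63, 2.54 and 1.44 CPM in RD against 0.902, 2.85 and 6.42 CPM in HFD. Both were thus high in the same library as MBP and MOBP, but most markers of their 2 lists were not highest there. HFD replicate 3 was the highest library for 3 of the 13 pituicyte and astrocyte markers (23.1%). For the folliculostellate and stem cell markers it was the highest for 2 of 11 (18.2%). The share over all tested genes was 18.3%.

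Of the 22 tested other oligodendrocyte myelin genes, 6 were highest in HFD replicate 3 (27.3%), against 18.3% of all tested genes. Several oligodendrocyte genes too low to be tested were also highest in HFD replicate 3. ERMN, a cytoskeletal protein of myelinating cells, had 0, 4 and 6 counts in RD and 1, 2 and 26 in HFD. KLK6, an oligodendrocyte protease, had no count in RD and 0, 2 and 14 in HFD. HAPLN2, a link protein of the node matrix, had 4, 9 and 10 counts in RD and 0, 12 and 33 in HFD. HFD replicate 3 was the highest for these 3 of 5 such genes, and the others, OPALIN and GJC3, had at most 9 counts in any library. The lineage factor OLIG2 had no count in RD and 3, 0 and 1 in HFD. OLIG1 had 0.760 ± 0.383 CPM in RD against 0.798 ± 0.114 CPM in HFD (SD, n = 3). The summed level of the 8 members with a row was 84.0 to 95.9 CPM in RD and 91.2, 103 and 203 CPM in HFD replicates 1, 2 and 3. MBP alone made up 49.2 to 58.1 CPM of the sums in RD. In HFD replicates 1, 2 and 3 it made up 51.3, 57.3 and 136 CPM. Whether the tissue taken differed for HFD replicate 3 was not tested.

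**Figure D3:**
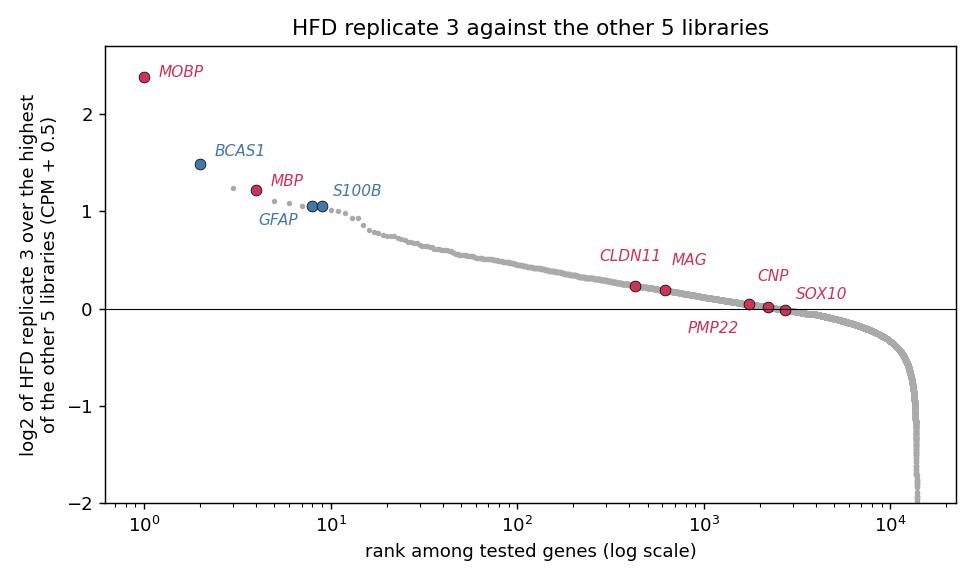
Tested genes ranked (log axis) by log2 of HFD replicate 3 over the highest of the other 5 libraries, each with 0.5 CPM added (vertical axis, limited to -2 to 2.7, so that the few genes below -2 are off the axis). Members are in red and other named genes in blue; MOBP, BCAS1 and MBP take ranks 1, 2 and 4, and CNP, PMP22 and SOX10 lie near 0.

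HFD replicate 1 was low for 3 of the members that were not called. It was the lowest of the 6 libraries for 3 of the 7 tested members (CLDN11, SOX10 and PMP22), against 15.6% of all tested genes. Markers of several other cells were lowest there too. They were 8 of 13 tested pituicyte and astrocyte markers, 9 of 13 fibroblast and meningeal markers and 5 of 11 hypothalamic neuron markers. The same held for 4 of 10 oligodendrocyte precursor genes and 4 of 14 Schwann cell genes (28.6%). Immune (27.3%) and endothelial markers (25%) had shares near that of Schwann cell genes. Not all lists shared this. HFD replicate 1 was the lowest for 2 of 22 other oligodendrocyte myelin genes (9.09%), 1 of 17 node and paranode genes (5.88%) and 2 of 13 endocrine markers (15.4%). Summed levels of the pituicyte and astrocyte list were 333 to 417 CPM in RD and 269 to 376 CPM in HFD, with 269 in HFD replicate 1. The fibroblast and meningeal list summed to 637 to 693 CPM in RD and 506 to 638 CPM in HFD, with 506 in HFD replicate 1. Schwann cell genes summed to 206 to 287 CPM in RD and 197 to 244 CPM in HFD. The part of these cells in the values of CLDN11, SOX10 and PMP22 was not tested. The Schwann cell gene PMP2 had no count in any library.

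**Figure D4:**
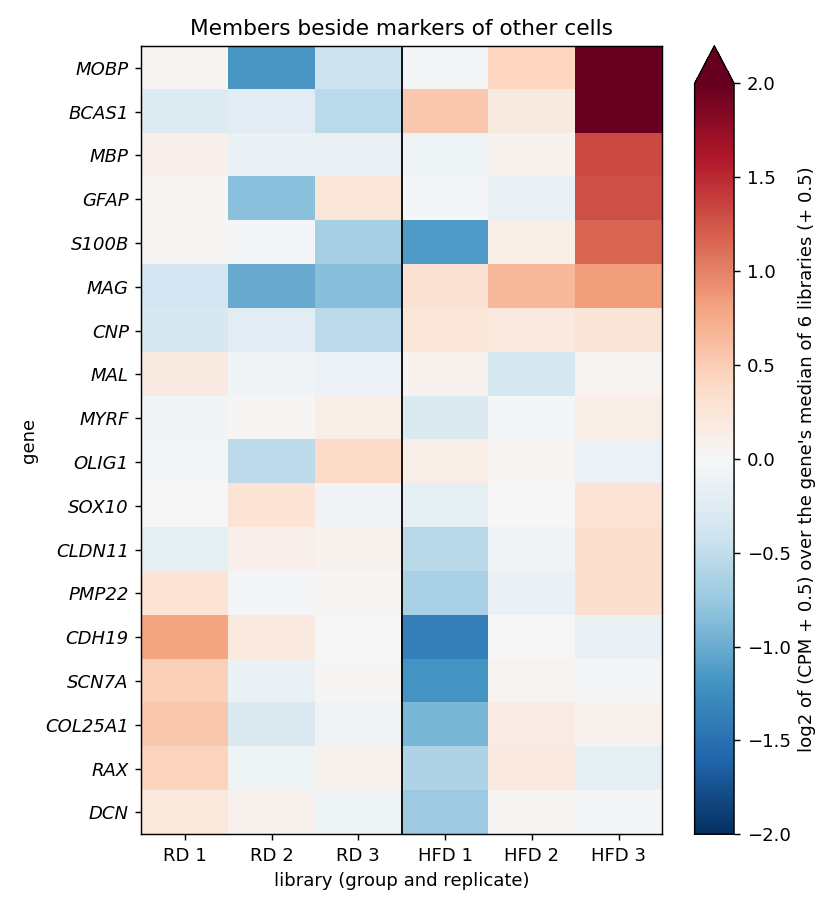
Log2 of each library's CPM over the gene's median of 6 libraries (0.5 CPM added to both; colours saturate at 2) for members and markers of other cells that were chosen after their values were seen. MOBP, BCAS1, MBP, GFAP and S100B are high in HFD 3, MAG and CNP in all HFD libraries, and CLDN11, PMP22, CDH19, SCN7A and DCN are low in HFD 1.

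Members were also compared pairwise. Across the 6 libraries, Pearson's r of log2 CPM was 0.94 between MBP and MOBP, 0.89 between CNP and MAG, 0.84 between CLDN11 and SOX10 and 0.79 between CLDN11 and PMP22. For other pairs within a pattern it was 0.81 between MOBP and MOG, 0.68 between MBP and MOG and 0.66 between SOX10 and PMP22. Some pairs from different patterns lay in the same range, at 0.81 for MAG and MOBP and 0.75 for MAG and MOG. Between CNP and PMP22 it was -0.35. These values describe 6 libraries that include both groups and rest in part on single libraries. Of 12798 genes with sufficient level, those whose profile was most like the mean of CNP, MAG, MBP and MOBP were GALNS (r = 0.998), GPR137 (0.994), NOS1 (0.993), NOS1AP (0.991) and BCO2 (0.990). NOS1, the neuronal nitric oxide synthase, had 2.57, 1.82 and 1.91 CPM in RD against 3.47, 4.21 and 6.35 CPM in HFD. Its groups did not overlap and HFD replicate 3 was the highest. NOS1 was picked for its likeness to that mean profile, so this order follows from the choice.

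The wider pathway was followed in lists of genes grouped by their role in myelin. Over 8 such lists without the members, 22 of 122 tested genes were called, 17 higher and 5 lower, against 10.5% of all genes, and their median log2 difference was 0.07. Without HFD replicate 3, 7 of these genes were called, against 3.08% of all genes. The node and paranode list, with 17 tested genes, alone held 9 of the 22 calls and 4 of the 7. Of the other oligodendrocyte myelin genes, 22 were tested, 2 rose and 2 fell, and the median was 0.14. BCAS1 did not pass, at 2.07 ± 0.61 (adjusted p = 0.0583) and 1.08 ± 0.44 without HFD replicate 3 (adjusted p = 0.224).

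ENPP2, the secreted lysophospholipase autotaxin, rose from 43.9 ± 6.63 to 74.8 ± 7.66 CPM (SD, n = 3), by 0.77 ± 0.12 on the log2 scale (adjusted p = 0.00569), and stayed called with any 1 library left out. It was highest in HFD replicate 1. CA2, a carbonic anhydrase of oligodendrocytes and of other cells, fell from 12.8 ± 0.496 to 7.18 ± 1.27 CPM, a log2 difference of -0.83 ± 0.16 (adjusted p = 0.013). It was -0.70 (adjusted p = 0.0545) when HFD replicate 2 was dropped and -0.87 (adjusted p = 0.0566) when HFD replicate 3 was dropped. CRYAB, a small heat shock protein, was at -0.67 ± 0.18 (adjusted p = 0.0429), and its call held when RD replicate 1 or RD replicate 2 was dropped. It ended on dropping RD replicate 3 (-0.48, adjusted p = 0.0925) or any HFD library (-0.75 to -0.60, adjusted p from 0.107 to 0.132). With all libraries it also ended under upper-quartile scaling (adjusted p = 0.0502), library size only (0.0576) and limma-voom (0.0562). The abundant genes GSN, TSPAN2 and QDPR, which many cells express, were at -0.06 ± 0.11, 0.10 ± 0.08 and 0.11 ± 0.08 and were not called. MAL, a raft proteolipid of compact myelin, was at -0.08 ± 0.17 (adjusted p = 0.813).

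Of 10 tested precursor genes, 2 rose and none fell, against 5.87% and 4.61% of all tested genes, with a median of -0.08. LHFPL3, a tetraspan-like protein found in precursor cells, went from 9.70 ± 1.80 to 19.7 ± 4.02 CPM, a log2 difference of 1.02 ± 0.18 (adjusted p = 0.00895), and stayed called with any 1 library left out. CSPG4, the NG2 proteoglycan of precursor cells and of pericytes, rose by 0.84 ± 0.19 on the log2 scale (adjusted p = 0.0208). Its adjusted p was 0.0895 when HFD replicate 2 was dropped and 0.0965 when HFD replicate 3 was dropped. PDGFRA, the growth factor receptor of precursors and fibroblasts, was at 0.25 ± 0.11 (adjusted p = 0.177), and PTPRZ1, a receptor phosphatase of precursors and astrocytes, at -0.34 ± 0.10 (adjusted p = 0.0592).

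By edgeR, none of the 11 tested transcription factors of the lineage was called. Of these, 1 had an unadjusted p under 0.05, and DESeq2 and limma-voom called none. Their mean levels over the 6 libraries ran from 0.779 CPM for OLIG1 to 162 CPM for MYT1 and 271 CPM for CHD7. Which cells these counts came from was not tested, so the lack of calls does not describe oligodendrocytes alone. MYRF, the factor that drives myelin genes in maturing oligodendrocytes, had 4.4 ± 0.321 CPM in RD against 4.11 ± 0.671 CPM in HFD, a log2 difference of -0.10 ± 0.21 (adjusted p = 0.816). NKX6-2, with the smallest p, was at -0.63 ± 0.26 (adjusted p = 0.157). Of 14 tested Schwann cell genes, edgeR called none, 3 had an unadjusted p under 0.05, DESeq2 called 1 and limma-voom none. The smallest p was that of LGI4, a secreted Schwann cell protein, at 0.67 ± 0.20 (adjusted p = 0.0577). Of 15 tested tetraspan and claudin relatives of PMP22 and CLDN11, edgeR called none, 3 had an unadjusted p under 0.05, and DESeq2 and limma-voom called none.

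Of 17 tested genes of galactolipid and sphingolipid metabolism, 1 rose and 1 fell, with a median of 0.03, a share near the 10.5% called over all genes. DEGS1, the desaturase that completes ceramide, fell from 66.7 ± 3.21 to 48.4 ± 1.5 CPM, a log2 difference of -0.46 ± 0.08 (adjusted p = 0.00714), and stayed called with any 1 library left out. ARSA, the lysosomal sulfatase that degrades sulfatide, was at 0.37 ± 0.10 (adjusted p = 0.0483), a call that held only on dropping RD replicate 1. The other 5 libraries, each dropped in turn, gave 0.28 to 0.42 with adjusted p from 0.0816 (RD replicate 3) to 0.195 (HFD replicate 3). With all libraries the call also ended under RLE scaling (adjusted p = 0.051), TMM without hormone genes (0.0503) and limma-voom (0.0518).

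Adhesion and channel genes of nodes and paranodes, the axonal partners of myelin, which neurons and endocrine cells also express, held the most calls. Of 17 tested, 8 rose and 1 fell, against 5.87% and 4.61% of all tested genes. The list had a median of 0.35, and 0.33 without HFD replicate 3. Its summed level was 1713 to 1903 CPM in RD and 2228 to 2248 CPM in HFD. CNTN1, the axonal contactin of the paranode, rose from 146 ± 12.7 to 233 ± 2.80 CPM, by 0.67 ± 0.07 on the log2 scale (adjusted p = 0.00127). NFASC, the neurofascin gene of node and paranode, rose by 0.35 ± 0.06 (adjusted p = 0.00569), and the sodium channel gene SCN8A by 0.51 ± 0.08 (adjusted p = 0.00528). JAM3, a junctional adhesion molecule, fell from 76.7 ± 0.722 to 50.8 ± 2.22 CPM, a log2 difference of -0.59 ± 0.07 (adjusted p = 0.00191). These 4 stayed called with any 1 library left out. NRCAM (0.33), ANK3 (0.35), KCNA2 (0.55), CNTNAP2 (0.55) and CADM3 (1.35) rose as well. All 5 lost their calls on dropping HFD replicate 3 (adjusted p from 0.0842 to 0.147). Dropping HFD replicate 2 ended those of ANK3, KCNA2, CNTNAP2 and CADM3 (0.0645 to 0.117), and HFD replicate 1 those of NRCAM (0.0593) and KCNA2 (0.0847). RD replicate 2 did so for ANK3, CNTNAP2 and CADM3 (0.0615 to 0.0858), RD replicate 1 for CADM3 (0.0525) and RD replicate 3 for CNTNAP2 (0.0547). The 3 HFD libraries lay close together for CNTN1 and NFASC, unlike for MBP and MOBP.

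Of 18 tested receptors and ligands that regulate myelination, 4 rose and 1 fell, against 5.87% and 4.61% of all tested genes. The median of the 18 was 0.07. Without HFD replicate 3 none was called, when 3.08% of all genes were called. LINGO1, a receptor component that restrains oligodendrocyte maturation, rose from 5.14 ± 0.694 to 9.71 ± 0.953 CPM, by 0.92 ± 0.17 on the log2 scale (adjusted p = 0.0117, and 0.0674 without HFD replicate 3). IGF1, a growth factor that many cells make, rose by 1.10 ± 0.22 (adjusted p = 0.013), and this call ended on dropping HFD replicate 1 (adjusted p = 0.051) or HFD replicate 3 (adjusted p = 0.0587). NRG1, an axonal growth factor for myelinating glia, rose by 0.25 ± 0.06 (adjusted p = 0.0335), and the adhesion receptor ADGRG1 by 0.29 ± 0.07 (adjusted p = 0.0343). Their calls held only on dropping RD replicate 3, and the other 5 libraries dropped in turn gave adjusted p from 0.0763 to 0.137 for NRG1 and from 0.0506 to 0.129 for ADGRG1. RTN4R, the Nogo receptor, had 2.45, 2.60 and 14.6 CPM in RD against 0.971, 1.49 and 0.203 CPM in HFD, with the high value in RD replicate 3. Its log2 difference was -2.88 ± 0.80 (adjusted p = 0.0479). On dropping RD replicate 3 it was -1.50 (adjusted p = 0.111), and on dropping an HFD library the adjusted p was 0.104 to 0.179. With all libraries RTN4R was not called by DESeq2 (adjusted p = 0.0551), limma-voom (0.128) or edgeR on halved counts (0.0575).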

How the data were processed

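The authors deposited whole-number read counts per gene, with no normalization, for 6 libraries in 1 table. The build was mm10, per the submitters' processing notes. Which aligner, counter and annotation made it is not given in the sources used here. Library totals were 14185372 to 18111345 counts. Among counts from 1 to 10, 64.0% to 67.0% were even, against 48.9% to 50.4% above 200, so read mates may have been counted separately and no counting intervals are given.

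Groups came from the treatment label. All genes were tested with edgeR 4.0.16 (R 4.3.3; quasi-likelihood, TMM, minimum count 10, minimum total 15, two-sided, Benjamini-Hochberg). The fit was checked on simulated data. Alternatives were RLE, upper-quartile and library-size scaling, TMM without hormone genes, other filters, DESeq2 1.42.0, limma-voom (limma 3.58.1), halved counts, a replicate block and leaving out each library. Positions and lengths are from GENCODE M21, and promoter windows from RefSeq (GRCm38.p6).

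Members and lists were chosen with earlier results of these data known. By rule, all members and 5 genes of like profile were to be named. So were the called genes of each list (at most 4 by p, otherwise the 2 with the smallest p). The rule also took the most abundant genes of the glial lists. Not every gene under this rule is named in the text. NRCAM, ANK3, KCNA2, CNTNAP2, CADM3, RTN4R and the genes named for HFD replicate 3 were added after their values were seen. Some list genes are counted but not reported here by name.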

Additional observations from a re-analysis of the deposited data

How the results depend on the processing

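Over 16 alternatives, the log2 values of the 7 tested members gave 95 results on the same side of zero and of the threshold, 6 that lost a call, 1 that gained one and 6 of changed sign, all of the last from CLDN11 (0.02 with library size only, 0.15 without HFD replicate 1), SOX10 (0.01 with library size only, 0.08 without RD replicate 2, 0.08 without HFD replicate 1) and PMP22 (0.02 without HFD replicate 1). Leaving out each library in turn gave -0.31 to 0.15 for CLDN11, -0.25 to 0.08 for SOX10 and -0.50 to 0.02 for PMP22. The called members numbered 2 in the main analysis, 1 at a minimum count of 50, where MAG was not tested, and 0 to 3 when 1 library was left out. The 0 arose on dropping HFD replicate 2 or HFD replicate 3, where edgeR gave 4 and 2 members, in that order, an unadjusted p under 0.05; DESeq2 and limma-voom each called 2 with all libraries. The calls across the table numbered 1453 in the main analysis and from 431 (without HFD replicate 3) to 1523 (without RD replicate 1) when 1 library was left out, with 490, 701 and 890 on dropping HFD replicate 2, HFD replicate 1 and RD replicate 2, and the calls of the other lists from 7 to 22. Such fits have fewer samples; the cause of the differences between them was not tested. Scaling by library size only gave 1121 higher and 425 lower calls, against 814 and 639. The same replicate numbers did not pair the libraries (correlations of deviations -0.127, 0.00371 and -0.0972), and a replicate block left 808 genes, 1 member (CNP) and 12 genes of the other lists called. SOX10 was not tested at a minimum count of 50 or with halved counts, nor MAG and MOBP at a minimum count of 50. With 3 libraries per group and few counts, differences in MOG and SOX10 below their spread were not detectable at this depth.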
